A study of Mus musculus with 24 samples.

Results

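A set of 223 mouse genes with placeholder names, Gm followed by digits, was nearly silent in embryonic stem cells without DUX and was read in every library in which DUX had been induced. They were found among 26497 Gm genes and 55487 genes in all. A gene belonged to the set if its raw counts summed to 60 or less over the 12 libraries without doxycycline (DOX) and reached 20 or more in each of the 12 libraries with DOX. The rule also left out 6 genes by name, 4 of which met these limits. The counts with and without DOX therefore chose the members, and the rise with DOX is given below as a description with no test.

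All cells were KH2 mouse embryonic stem cells labelled TRE_DUX, that is, with DUX behind a promoter that responds to doxycycline. DOX was given for 16 h, and the groups without DOX carried the same transgene. The plain set had WT and DUXBL_KO cells. The pLV2 set had WT pLV2 line 1, WT pLV2 line 2, TRIM24_KO pLV2 and TRIM33_KO pLV2 cells. Each of these 6 lines was sequenced with and without DOX in 2 libraries, which makes 12 groups and 24 libraries. Left unsaid in the labels are the meaning of pLV2, whether a knockout is 1 clone, which WT line belongs with which knockout, and whether the 2 libraries of a group came from separate cultures. The p-values below therefore measure the spread between libraries, which may be technical. Cells were grown on gelatin or on feeder fibroblasts, and the labels do not say which was used for a given library.

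DUX is a double homeobox transcription factor made in the early mouse embryo when its own genome is first transcribed, in the 2-cell stage. In embryonic stem cells, forced DUX brings on genes of that stage and transcripts that begin in retrovirus-derived repeats. Many genes of that stage are recent, multi-copy and unnamed, so they carry Gm symbols and are often annotated as pseudogenes or long non-coding RNAs. DUXBL is a related double homeobox protein, and TRIM24 and TRIM33 are transcription cofactors of one family.

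The letters before the start of several members are shown first, since members on different chromosomes share them. RefSeq start sites with 250 bases before and 50 bases after them (GRCm38.p6) were at hand for 35 of the 223 members. The palindrome GATTNAATC, the core of the motif that DUX is known to bind, stood in 7 of these 35. It stood in 83 of 27025 genes with such a window (0.307%) and in 34 of 8643 Gm genes (0.393%). The match was sought on both strands, which give the same letters here. A match is a description of letters and not of binding. The stretches below run from base -200 to base -81 before the RefSeq start and are written 5′ to 3′ along the gene, with the palindrome in capitals. They belong to Gm4340 (chr10:104193842-104193961, plus strand), Gm21293 (chr10:104142787-104142906, plus), Gm12724 (chr4:106236922-106237041, plus), Gm33248 (chr7:129667225-129667344, plus), Gm21761 (chr13:119913549-119913668, minus) and Gm13043 (chr4:143511143-143511262, plus).
Gm4340: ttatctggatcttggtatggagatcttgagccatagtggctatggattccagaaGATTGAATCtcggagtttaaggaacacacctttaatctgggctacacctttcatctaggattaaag
Gm21293: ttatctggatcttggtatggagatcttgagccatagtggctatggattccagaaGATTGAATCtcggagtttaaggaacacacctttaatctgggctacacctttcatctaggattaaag
Gm12724: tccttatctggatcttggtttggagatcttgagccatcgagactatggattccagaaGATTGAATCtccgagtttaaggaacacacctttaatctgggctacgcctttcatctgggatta
Gm33248: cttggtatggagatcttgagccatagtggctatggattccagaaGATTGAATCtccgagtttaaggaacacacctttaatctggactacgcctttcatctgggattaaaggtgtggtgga
Gm21761: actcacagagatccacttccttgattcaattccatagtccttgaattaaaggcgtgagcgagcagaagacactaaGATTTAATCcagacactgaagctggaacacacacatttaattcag
Gm13043: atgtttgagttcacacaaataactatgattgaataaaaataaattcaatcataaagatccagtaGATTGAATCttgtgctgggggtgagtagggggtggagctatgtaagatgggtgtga
The first 4 windows and that of Gm35974 were near copies of one another, with identities from 88.7% to 99.7% over 300 bases when the first of the 2 RefSeq starts of Gm33248 was taken. These 5 genes lie on chromosomes 4, 7, 10 and 16. The windows of Gm13043 and Gm21761 matched those of the others over only 45.8% to 53.7% of bases, so the letters around their palindromes differ. For Gm12724 and Gm21761 the RefSeq start lies kilobases away from the GENCODE start of the gene.

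Gm35974, a long intergenic RNA with 4 exons on the plus strand of chr16:3468460-3481051, shows how the palindrome is placed relative to the transcript. Its whole window, chr16:3468210-3468509, holds the palindrome 143 bases before the start and ends with the first 50 bases of the transcript.
Gm35974: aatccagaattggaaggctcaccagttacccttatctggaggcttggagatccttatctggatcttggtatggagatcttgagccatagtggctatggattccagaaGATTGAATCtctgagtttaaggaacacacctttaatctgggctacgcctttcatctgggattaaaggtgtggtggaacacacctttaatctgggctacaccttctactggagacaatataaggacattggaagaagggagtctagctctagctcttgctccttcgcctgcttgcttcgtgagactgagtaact

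The members were then searched for letters that they share near the beginning of their own transcripts. The run of 20 bases held by the most members was found in the first 150 bases of a GENCODE M21 transcript of 46 members (20.6%), against 125 of all 26497 Gm genes (0.472%). Since the run was picked for being common among the members, the contrast between these shares is a description. The starts of 4 long intergenic RNAs with this run are shown because they have the highest levels per length among such RNAs, with the 20 bases in capitals. They are Gm44693 on chromosome 8, Gm38258 on chromosome 3, Gm14742 on the X chromosome and Gm48187 on chromosome 12, and each is written from its first base to base 120.
Gm44693: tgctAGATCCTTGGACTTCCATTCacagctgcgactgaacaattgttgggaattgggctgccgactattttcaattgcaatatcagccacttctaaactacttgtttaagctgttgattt
Gm38258: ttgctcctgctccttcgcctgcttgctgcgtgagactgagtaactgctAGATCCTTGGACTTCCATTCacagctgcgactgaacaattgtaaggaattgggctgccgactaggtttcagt
Gm14742: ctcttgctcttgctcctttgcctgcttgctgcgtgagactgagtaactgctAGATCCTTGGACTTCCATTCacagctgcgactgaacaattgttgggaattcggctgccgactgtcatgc
Gm48187: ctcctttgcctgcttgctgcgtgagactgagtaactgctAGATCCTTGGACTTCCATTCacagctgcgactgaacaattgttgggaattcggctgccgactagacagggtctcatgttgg
The 46 members lie on 14 chromosomes. The run began at base 50 in the median transcript and between bases 40 and 60 in 32 members. Its share was 24 of 41 long intergenic RNAs (58.5%), 7 of 14 antisense RNAs and 3 of 4 sense intronic RNAs. It was in 6 of 63 protein-coding members and in none of the 53 processed or 33 unprocessed pseudogenes. Among all Gm genes, too, none of the 8627 processed and 1880 unprocessed pseudogenes had it. Of the 7 members with the palindrome, 6 also had this run in a transcript, and Gm13043 did not. Among the Gm genes outside the set, 79 had the run, and 72 of those had a larger summed count with DOX than without. The same share was not computed for Gm genes without the run, so the 72 cannot be set against a background. Of the 79, 76 kept the limit of 60 without DOX but had fewer than 20 counts in some DOX library.

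**Figure D1:**
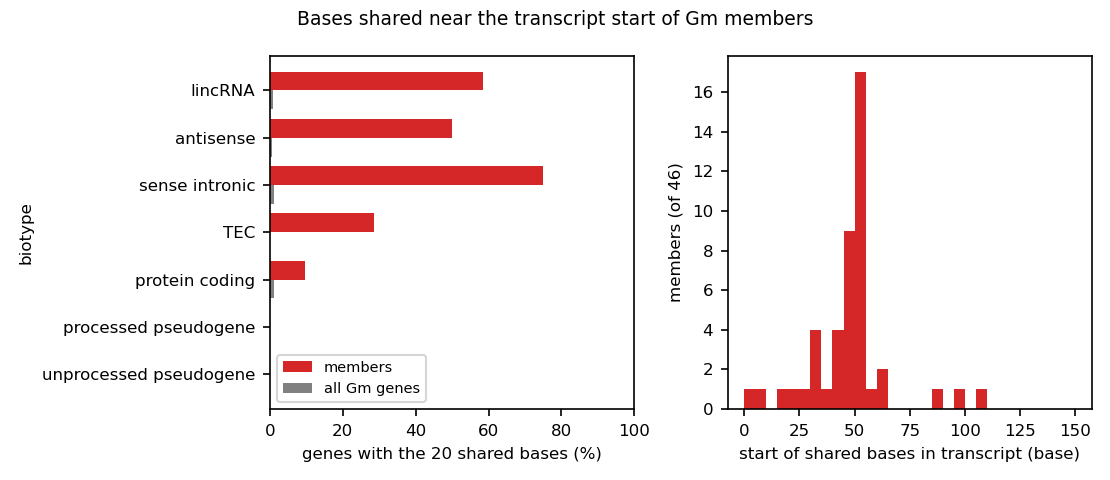
Left, share of genes (percent) with the 20 shared bases in the first 150 bases of a transcript, by biotype, for the members (red) and for all Gm genes (gray). Right, position in the transcript (base) at which the shared bases begin in the 46 members that have them, most of them near base 50.

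By GENCODE M21 biotype, 63 members (28.3%) were protein coding, 53 processed pseudogenes, 41 long intergenic RNAs, 33 unprocessed pseudogenes and 14 antisense RNAs. The rest were 7 TEC models, which await experimental evidence, 4 sense intronic RNAs, 4 transcribed unprocessed and 1 transcribed processed pseudogene, 2 processed transcripts and 1 miRNA. Protein-coding models made up 5.58% of all Gm genes, and 30.8% of the 786 Gm genes, members included, with 20 or more counts in each DOX library. Their share among the members was thus close to that of Gm genes read at this depth. Unprocessed pseudogenes, which arise by duplication, were 14.8% of members and 6.11% of those 786 genes. Of the 48 unprocessed pseudogenes among the 786, 33 were members. A single exon was annotated in 95 members. The members lie on 19 chromosomes, and 97 of them sit in 16 clusters of 3 or more with gaps of at most 500 kb. The longest lists are 19 members on chr12:87480108-88287069, 14 on chr3:93628640-94266784, 12 on chr5:93694994-95746617 and 7 on chr2:83955693-83993045.

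Of the 154 protein-coding and pseudogene members, 130 had a named protein-coding gene whose transcript matched theirs over at least 50% of its length with at least 70% identity. That is 84.4% of them, close to the 82.9% (247 of 298) of the other Gm genes of these kinds with 20 or more counts in each DOX library. The members' relatives were 55 genes in all. Translation factor Eif1a had 11 such members (86.4% to 95.2% identical), all on chromosome 12. Alyref, an adaptor for the export of mRNA, had 7, on chromosomes 1 and 10. Cwc22, a spliceosome protein, had 7 in tandem on chromosome 2, each 97.7% identical to it. The spliceosome proteins Crnkl1 and Cdc5l had 4 each, Eif4a3 of the exon junction complex had 3, and the export factor Gle1 had 3. Rbbp6, a ubiquitin ligase that also acts in cleavage of mRNA 3′ ends, had 5, and Rexo1, an RNA exonuclease, had 4. The Tdpoz genes, which code for proteins with TRAF-like and POZ domains, had 15 relatives, all on chromosome 3. D5Ertd577e and C87414 had 12 between them, all on chromosome 5. Tcstv1, a gene of the 2-cell stage, had 5, Tmem92 had 4, Pramef genes of the PRAME family had 5, the nuclear body genes Sp110 and Sp140 had 4, and Gapdh, the glycolytic enzyme, had 4.

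The levels of the named relatives with and without DOX are a description, like those of the members. Cwc22 itself was at 49.2 to 79.95 CPM (counts scaled by the TMM effective library size) without DOX and at 202 to 1154 CPM with DOX. Tcstv1 went from at most 0.368 CPM to between 25.6 and 243 CPM, and Tmem92 from at most 0.644 to between 89.1 and 675 CPM. Eif1a stood at 139 to 260 CPM without DOX and 108 to 237 CPM with DOX, and Alyref at 121 to 238 and 118 to 208 CPM. Crnkl1, Rexo1, Eif4a3, Gle1 and Gapdh likewise had overlapping ranges with and without DOX. How reads that match several genes were counted is not given in the sources used here. Of the members, 154 share at least 80% identity with another member over the aligned part of their transcripts, so counts within a family, and between a copy and its relative, are uncertain. The most extreme case is Gm13691, Gm13693, Gm13694, Gm13696 and Gm13697 of the Cwc22 group, whose counts were identical in all 24 libraries. Exons of 19 members overlap those of another gene, 12 of them on the opposite strand, and whether counting used the strand is not given. Gm21293 and Gm6763 overlap on the same strand and had almost the same counts.

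Without DOX the 223 members together took 54 to 294 counts per library, or 0.000422% to 0.00183% of the gene counts. With DOX they took 35549 to 204282 counts, or 0.197% to 1.71%. In the WT cells of the plain set the share was 0.466% (Wilson 95% interval 0.463 to 0.470) and 0.197% (0.195 to 0.199) in the 2 DOX libraries, and in TRIM33_KO it was 1.71% (1.70 to 1.71) and 1.26% (1.26 to 1.27). These intervals cover counting error only. Without DOX, 40 members had no count in any of the 12 libraries, and 169 had 10 or fewer in all. In WT, 212 members had 3 counts or fewer in both libraries without DOX, and with those set at 3 counts per library the median member was at least 27.3-fold higher with DOX. The same median was at least 64.2-fold in DUXBL_KO, 50.02-fold in WT pLV2 line 1, 119-fold in WT pLV2 line 2, 70.7-fold in TRIM24_KO and 203-fold in TRIM33_KO.

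Summed over the members, the level in DOX libraries was 4793 and 1947 CPM in WT, 6296 and 4692 CPM in DUXBL_KO, and 4600 and 5587 CPM in WT pLV2 line 1. It was 11864 and 9910 CPM in WT pLV2 line 2, 5512 and 7954 CPM in TRIM24_KO, and 18183 and 16145 CPM in TRIM33_KO. TRIM33_KO was highest, line 2 next, and the other lines lay lower. TMM factors were computed within each set, so a difference between plain and pLV2 lines cannot be told apart from one between the sets. DUXBL_KO and line 1 overlapped each other and both WT and TRIM24_KO. The second WT library of the plain set stood apart at the bottom. It had the lowest level for 215 members, and the 2 TRIM33_KO libraries held the highest level for 176 and 27 members. Counts reach a member from all cells of a culture, so fewer responding cells and less RNA per cell cannot be told apart.

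**Figure D2:**
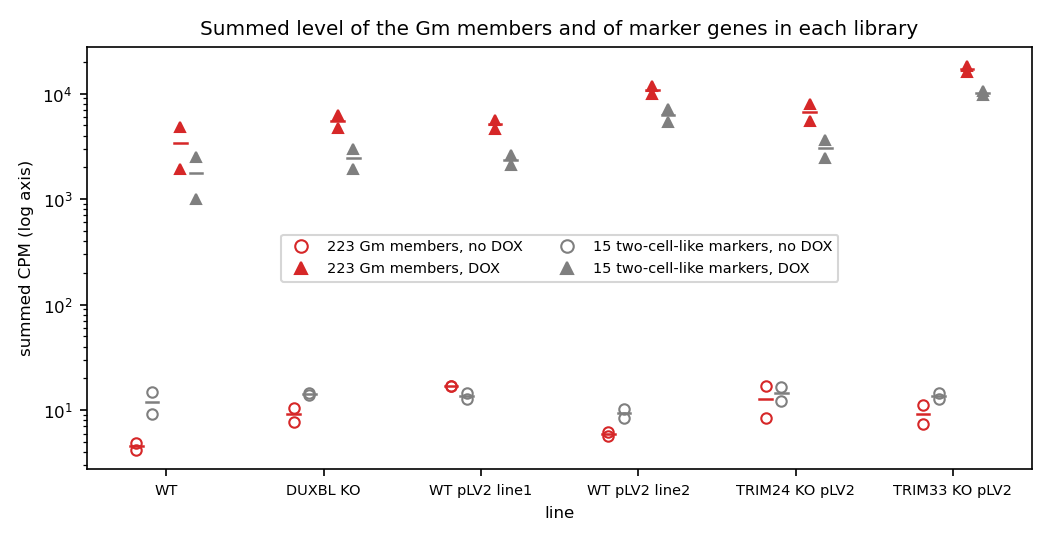
Summed CPM (log axis) of the 223 members (red) and of 15 marker genes of the 2-cell-like state (gray) in each library, open circles without DOX and filled triangles with DOX, short lines marking group means (n = 2). Members and markers are both higher with DOX in every line, and the TRIM33 KO libraries are highest, at 18183 and 16145 CPM for the members.

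Library facts that bear on these values are as follows. Gene counts ran from 11784696 to 19136869 per library. The 2-cell-like list (15 of 16 genes found in the tables) summed to 8.44 to 16.5 CPM without DOX in the pLV2 set and 9.25 to 14.7 CPM in the plain set, and to 1004 to 10565 CPM over all DOX libraries. None of its genes was at 0 in any DOX library. The ratio of members to this list lay between 1.67 and 2.41 in the 12 DOX libraries. Tcstv1, Tmem92, Sp110 and Tdpoz4 in that list are relatives of members. The 10 pluripotency genes summed to 4222 to 5952 CPM with DOX and 4745 to 6089 CPM without, with none at 0, and the 8 feeder fibroblast genes to 23.9 to 44.7 CPM with DOX and 14.3 to 41.9 CPM without. Of all gene counts, 30.4% fell on CT010467.1 in TRIM24_KO with DOX replicate 2 and 12.9% in TRIM33_KO with DOX replicate 2. Trim33 was at 16.9 to 21.5 CPM in the 4 TRIM33_KO libraries and at 85.4 to 166 CPM in the rest of the pLV2 set. Trim24 was at 121 to 137 CPM in libraries labelled TRIM24_KO, 94.7 to 100.4 CPM in WT pLV2 line 1 and 166 to 271 CPM in WT pLV2 line 2 and TRIM33_KO. Duxbl1 was at 4.98 and 11.1 CPM in the libraries labelled DUXBL_KO with DOX and at 3.23 and 8.35 CPM in WT with DOX. Trim33 was thus lower in the libraries labelled TRIM33_KO than in all other pLV2 libraries, whereas Trim24 in those labelled TRIM24_KO lay between the WT lines and Duxbl1 in those labelled DUXBL_KO overlapped WT. Counts outside a deleted part would not show a deletion, and TRIM24_KO and DUXBL_KO stand throughout for the libraries so labelled. A treatment tag goes against the title in 8 pLV2 libraries, and the titles were followed. By title, the 2-cell-like list summed to 2127 to 10565 CPM in pLV2 libraries with DOX and to 8.44 to 16.5 CPM in those without.

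The highest level per length belonged to Gm11543, an unprocessed pseudogene of 3 exons at chr11:94828186-94828930 (minus strand) that is 92.4% identical to Tmem92, a gene for a membrane protein, over 81.6% of its transcript. Its mean over the 12 DOX libraries was 461 CPM per kb of exon, while the median member had 14.5 and the lowest 1.07 CPM per kb. The 10 highest members made up 32% of the summed level per length. In CPM, Gm11543 was at 119 and 41.9 in WT, 96.5 and 48.6 in DUXBL_KO, 124 and 154 in line 1, 220 and 185 in line 2, 179 and 225 in TRIM24_KO, and 320 and 334 in TRIM33_KO. Both TRIM33_KO libraries lay above all other DOX libraries, and DUXBL_KO overlapped WT.

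Next came Gm8332, an intronless protein-coding copy of Eif1a at chr12:88249666-88250100 (minus strand), with 330 CPM per kb. Gm4340, the Alyref relative of 3 exons at chr10:104194042-104196522 whose upstream letters are shown above, had 307 CPM per kb. Its neighbour Gm21293, with a window that differs little, had 14.2 CPM per kb. Gm4340 was at 260 and 92.3 CPM in WT, 295 and 189 in DUXBL_KO, 222 and 269 in line 1, 613 and 477 in line 2, 227 and 338 in TRIM24_KO, and 918 and 897 in TRIM33_KO. Here too TRIM33_KO was above all others, and line 2 came second.

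The Tcstv1 relatives Gm21761, Gm20767 and Gm21818 on chromosome 13 had 246, 156 and 129 CPM per kb. Gm12794, a protein-coding gene at chr4:101940407-101943183 with no named relative by the rule above, had 195 CPM per kb, and Gm12800, close by on the same strand, had 115. Gm8994 and Gm5580, relatives of Eif4a3 on chromosome 6, had 180 and 91.8 CPM per kb. In Gm8994 the order of libraries was another one: 291 and 511 CPM in line 2, 522 and 443 in TRIM33_KO, 283 and 407 in TRIM24_KO and 151 and 188 in line 1, so that line 2 and TRIM33_KO overlapped. The Eif1a relatives Gm6803 and Gm2035 had 123 and 121 CPM per kb. Gm7029, a protein-coding model of 1 exon on chromosome 17 that is 98.8% identical to Platr17, had 88.8 CPM per kb. Over all members, the ratio of the highest to the lowest DOX library ran from 3.31 to 42.3, with a median of 9.67. This ratio spans both sets, whose CPM were scaled apart.

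Members near the limits of the rule are given with their neighbours outside it. The largest sums without DOX inside the limit of 60 were 58 counts for Gm19368, 56 for Gm8994 and 55 for Gm16026. Just outside it were Gm7942 with 62, Gm47510 with 64 and Gm27167 with 67. Gm37500, Gm8953 and Gm9043 each had exactly 20 counts in their lowest DOX library. Gm10552 and Gm12714 with 19 and Gm13191 with 18 fell just short.

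**Figure D3:**
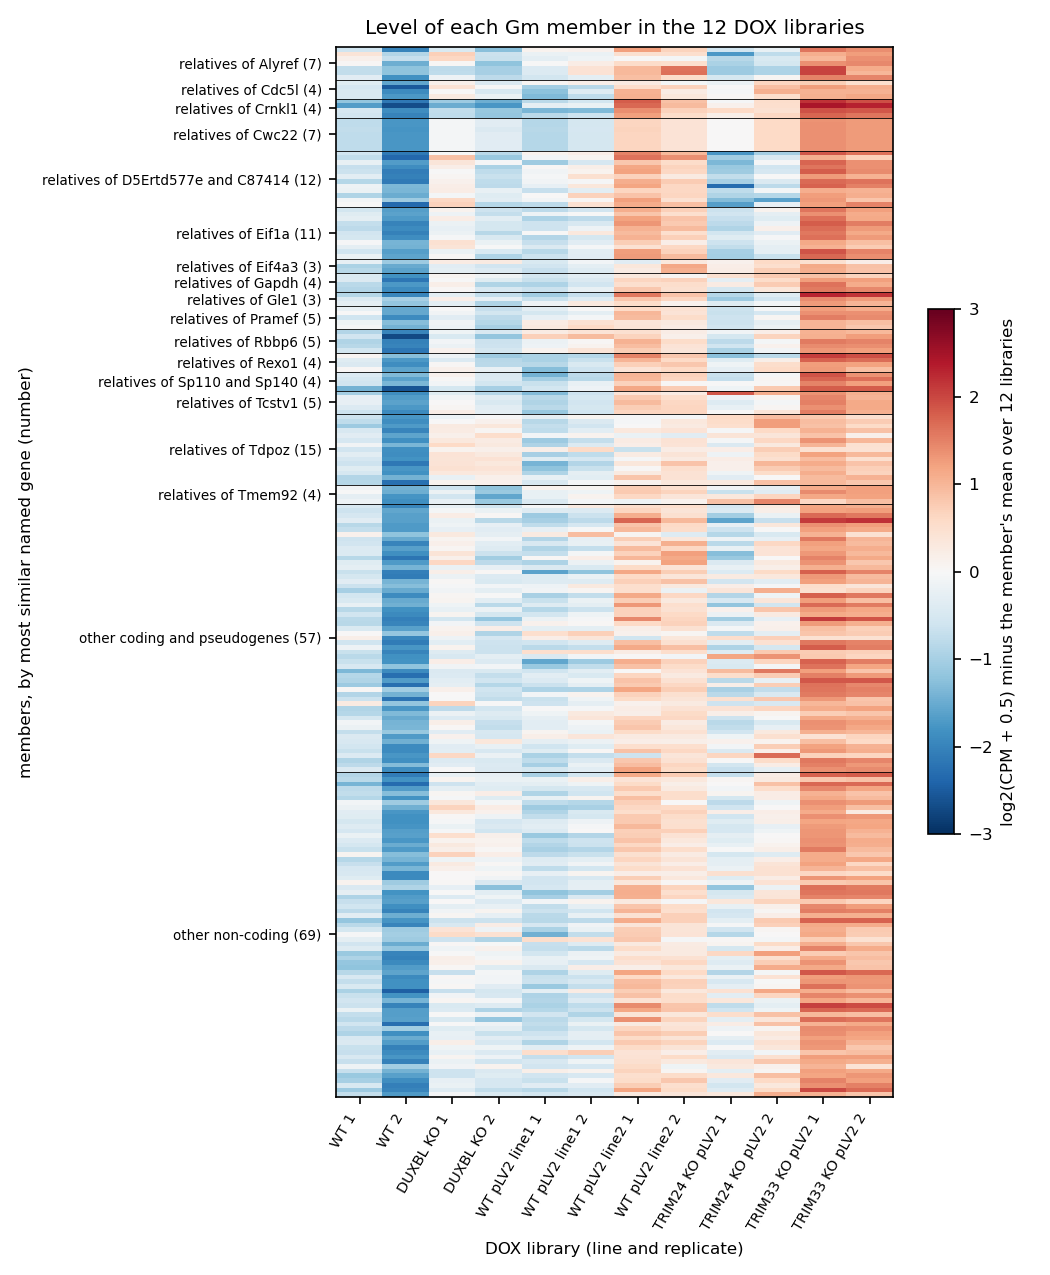
Level of each member (rows) in the 12 DOX libraries (columns), as log2(CPM + 0.5) minus the mean of that member over those libraries, grouped by most similar named gene with the number of members in parentheses. TRIM33 KO libraries are red and the second plain WT library blue in nearly all rows, while in the TRIM24 KO columns blue and red rows stand side by side. CPM were scaled in the plain and pLV2 sets apart.

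Differences between lines with DOX were not used by the rule, apart from its floor of 20 counts, and 4 of them were tested with edgeR's quasi-likelihood test and Benjamini-Hochberg adjustment over all genes of a set. All 223 members passed the filter on low counts in both sets, as the floor of 20 counts makes them do.

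In DUXBL_KO with DOX, 217 of the 223 members had a higher fitted level than in WT with DOX, but no member passed the test. The median log2 difference was 0.91, and that of all genes was 0.02. At an adjusted p of 0.05 edgeR called 0 members, against 0.072% of the 18060 genes tested. An unadjusted p under 0.05 was found for 63 members and for 10.1% of all genes. Both knockout libraries lay above both WT libraries for 147 members, and for 21.6% of all genes tested. DESeq2 called 2 members, Gm5773 and Gm4778, both Tdpoz relatives, and 1.14% of all genes. These 2 are named because the count is small. With no filter on low counts 93 members were called (2.63% of all genes), and with the replicate number as a block 20 were (2.69% of all genes), all of them higher.

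The 15 Tdpoz relatives had the highest family median in this comparison, 1.31, with single values from 1.02 to 1.87, and the 4 Tmem92 relatives had the lowest, -0.08. Cwc22 relatives had a median of 1.13, and those of Alyref 0.30. Gm5773, an intronless protein-coding copy of Tdpoz2 at chr3:93773000-93774142, was at 2.82 and 1.70 CPM in WT and at 8.03 and 8.53 CPM in DUXBL_KO. The groups did not overlap, and the log2 difference was 1.87 (SE 0.33, edgeR adjusted p = 0.209). Gm4778, also a relative of Tdpoz2, was at 34.5 and 12.9 CPM in WT and 67.6 and 69.0 CPM in DUXBL_KO, a log2 difference of 1.53 (SE 0.42, edgeR adjusted p = 0.347). WT replicate 2, the library with the lowest summed level, weighs on these values. Without it the median difference of the members was 0.43, and without WT replicate 1 it was 1.67. The family medians moved likewise. Without WT replicate 2 they were 0.82 for Tdpoz, 0.63 for Cwc22, -0.16 for Alyref and -0.65 for Tmem92 relatives, and without WT replicate 1 they were 2.16, 1.88, 1.06 and 0.86. Without DUXBL_KO replicate 1 the medians were -0.16 for Alyref and -0.64 for Tmem92 relatives, and without replicate 2 they were 0.72 and 0.32.

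When the DOX libraries were scaled to the summed 2-cell-like list, 186 members had a higher fitted level in DUXBL_KO than in WT, with a median of 0.42 against -0.69 for all genes. On that scale edgeR called 0 members and 0.15% of all genes, and an unadjusted p under 0.05 was found for 2 members and for 1458 of the 18060 genes. The list summed to 3014 and 1943 CPM in DUXBL_KO and to 2503 and 1004 CPM in WT. Duxf3, the mouse Dux gene and a member of that list, was at 4.94 and 2.85 CPM in DUXBL_KO and at 1.38 and 1.10 CPM in WT with DOX. Whether its counts include the transgene is not given in the sources used here. The pluripotency genes summed to 5952 and 5299.5 CPM in DUXBL_KO and to 4988 and 4972.5 CPM in WT. For Duxf3 and the pluripotency sum both knockout libraries lay above both WT libraries, and the part of these lists in the result was not tested.

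In TRIM33_KO with DOX, 207 of 223 members were higher than in the mean of both WT pLV2 lines by edgeR's test at an adjusted p of 0.05, and 0 were lower. Of all 18079 genes tested, 26.8% were called, 15.1% as higher. The median log2 difference was 1.17 for the members and -0.01 for all genes. With a log2 difference of at least 1 as well, 151 members were called, against 6.52% of all genes. Both knockout libraries lay above all 4 WT libraries for 202 members, and for 14.4% of all genes.

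All 11 Eif1a relatives were higher (median 1.24), as were all 7 Cwc22 relatives (1.49), all 4 Crnkl1 relatives (1.77), all 4 Rexo1 relatives (1.53) and all 4 relatives of Sp110 and Sp140 (1.64). The counts were 11 of 12 for D5Ertd577e and C87414 (median 1.01), 14 of 15 for Tdpoz (1.01) and 2 of 3 for Eif4a3 (0.83). Without TRIM33_KO replicate 1 they were 6 of 12 for D5Ertd577e and C87414 and 3 of 5 for Pramef, where all 5 had been called. Of the 46 members with the shared bases near the transcript start, 46 were higher (median 1.27), and of the 177 without them 161 were (median 1.13).

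The member with the smallest p was Gm28940, an antisense RNA of 3 exons at chr1:82392493-82402746 (minus strand) with the shared bases from its base 54. It was at 157 and 147 CPM in TRIM33_KO, 101 and 67.9 CPM in line 2, and 19.3 and 22.1 CPM in line 1. Both knockout libraries lay above every WT library, and the WT lines did not overlap. The log2 difference was 1.87 (SE 0.13, edgeR adjusted p = 1.25e-07). Gm21939, a processed pseudogene of Rexo1 at chr12:87781143-87783915, was at 556 and 520 CPM in TRIM33_KO, 334 and 249 in line 2 and 84.7 and 103 in line 1, a log2 difference of 1.70 (SE 0.12, edgeR adjusted p = 1.49e-07). Gm4782, a processed pseudogene of Crnkl1 at chr6:50608637-50610682, showed the same order, at 115 and 112 CPM in TRIM33_KO, 80.8 and 49.5 in line 2 and 11.5 and 11.9 in line 1. Its log2 difference was 2.04 (SE 0.15, edgeR adjusted p = 1.63e-07).

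The choice of WT line changed the count. Against line 1 alone 210 members were higher (median 1.65), with 43.1% of all genes called. Against line 2 alone 69 were (median 0.64), with 3.58% of all genes called. The members higher than each WT line numbered 69, against 2.05% of all genes. Against line 2 alone, the members called higher were 1 of 11 Eif1a, 0 of 7 Cwc22, 3 of 4 Crnkl1, 2 of 4 Rexo1 and 3 of 4 Sp110 and Sp140 relatives. They were 1 of 12 for D5Ertd577e and C87414, 4 of 15 for Tdpoz and 0 of 3 for Eif4a3, and 18 of the 46 members with the shared bases. When the DOX libraries were scaled to the summed 2-cell-like list, 8 members were higher and 64 lower. On that scale the median was -0.24 for the members and -1.42 for all genes, of which 87.2% were called. The list itself summed to 9654 and 10565 CPM in TRIM33_KO, 5326 and 7107 CPM in line 2 and 2127 and 2593 CPM in line 1, and its part in the result was not tested. Other marker lists moved with the lines too. The 8 feeder fibroblast genes summed to 40.7 to 44.7 CPM in TRIM33_KO and line 2 with DOX and to 25.5 to 28.0 CPM in line 1, with 1 to 3 of them, Col3a1 among them, at 0 in each of these libraries. The 10 pluripotency genes summed to 4222 to 4353 CPM in TRIM33_KO and line 2 and to 5321 to 5372 CPM in line 1, and none was at 0. Duxf3 was at 6.94 and 5.86 CPM in TRIM33_KO, 4.44 and 3.96 CPM in line 2, 7.24 and 8.33 CPM in line 1 and 3.15 and 3.05 CPM in TRIM24_KO with DOX, so its order was not that of the members. The part of these lists in the differences of TRIM33_KO and line 2 from line 1 was not tested.

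The WT pLV2 lines themselves differed with DOX. In line 2, 183 members were higher than in line 1 and 1 was lower, by edgeR's test at an adjusted p of 0.05. Of all genes 40.1% were called, 19.5% as higher and 20.6% as lower. The median log2 difference was 1.11 for the members and -0.03 for all genes, and 123 members were called with a difference of at least 1, against 11.3% of all genes. The Crnkl1 relatives had the highest family median, 1.90, followed by those of Eif1a at 1.59 and Rexo1 at 1.56. The lowest were those of Rbbp6 at 0.31, of which 2 of 5 were called higher, and of Tmem92 at 0.55, of which 2 of 4 were. Leaving out libraries moved several of these. The Rbbp6 median was 0.17 without line 1 replicate 1 and 0.11 without line 2 replicate 1, each with 1 of 5 called, and 0.48 without line 2 replicate 2. Without line 1 replicate 1, 1 of 4 Tmem92, 3 of 7 Alyref and 6 of 15 Tdpoz relatives were called higher, where 6 of 7 and 12 of 15 had been for Alyref and Tdpoz. Without line 2 replicate 2 these were 3 of 7 for Alyref and 7 of 15 for Tdpoz, and the Eif4a3 median went from 1.24 to 0.77.

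Gm4782, the Crnkl1 pseudogene with the values given above, had the smallest p in this comparison, with a log2 difference of 2.48 (SE 0.20, edgeR adjusted p = 1.01e-07). Gm18983, a processed pseudogene of Rexo1 at chr12:87480108-87482836, was at 294 and 184 CPM in line 2 and 54.3 and 57.4 CPM in line 1 (log2 difference 2.10, SE 0.17, edgeR adjusted p = 1.67e-07). Gm28940 differed by 2.03 (SE 0.17, edgeR adjusted p = 2.01e-07). The lower member was Gm19174, a pseudogene of Ubtfl1 at chr9:18400542-18402855 whose exons overlap those of Naalad2 on the opposite strand. It was at 5.28 and 3.66 CPM in line 2 and 6.02 and 9.77 CPM in line 1, with no overlap (log2 difference -0.82, SE 0.31, edgeR adjusted p = 0.0497). That call was lost with RLE scaling (adjusted p = 0.0638) and without line 1 replicate 2 (adjusted p = 0.409), line 2 replicate 1 (0.051) or line 2 replicate 2 (0.25). It was also lost with DESeq2 (adjusted p = 0.109), a mean of at least 10 counts (0.0514), CT010467.1 left out (0.0558), the replicate block (0.0553) and only DOX libraries in the fit (0.0519). Scaled to the 2-cell-like list, 12 members were higher and 75 lower, with a median of -0.26 against -1.41 for all genes, of which 83.2% were called.

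**Figure D4:**
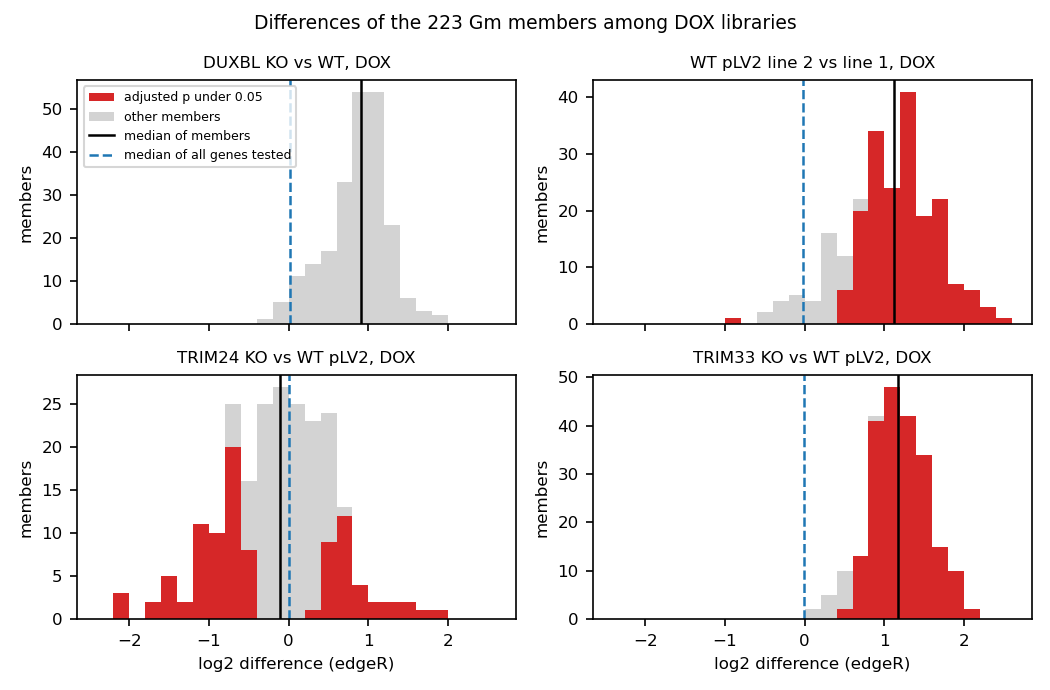
Number of members by log2 difference (edgeR) in the 4 comparisons of DOX libraries, with members at an adjusted p under 0.05 in red, the members' median as a black line and the median of all genes tested as a dashed blue line. The members' median lies at 0.91, 1.11 and 1.17 in the DUXBL KO, WT line 2 and TRIM33 KO panels, and at -0.11 in the TRIM24 KO panel, where members spread to both sides.

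In TRIM24_KO with DOX the members split. By edgeR's test at an adjusted p of 0.05, 34 were higher and 61 lower than in the mean of both WT pLV2 lines, with a median log2 difference of -0.11. The share of members called, 42.6%, was near the 40.8% of all genes, of which 22.7% were higher and 18.1% lower. With a log2 difference of at least 1 as well, 31 members were called (8 higher, 23 lower), against 12.4% of all genes. The count itself therefore says little about the members. TRIM24_KO and TRIM33_KO were set against the same WT libraries, so the 2 comparisons are not independent.

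Members of one family mostly lay on one side of the mean of both WT lines. The 12 relatives of D5Ertd577e and C87414 on chromosome 5 had a median of -1.42, and 11 were lower. The 7 Alyref relatives had a median of -1.09 with 5 lower, the 5 Pramef relatives -0.76 with 5 lower, the 11 Eif1a relatives -0.70 with 8 lower, and the 5 Rbbp6 relatives -0.54 with 3 lower. On the other side, the 15 Tdpoz relatives on chromosome 3 had a median of 0.54, with 10 higher and 0 lower. The 4 Gapdh relatives, on 4 chromosomes, had a median of 0.37 with 2 higher, and the 4 Cdc5l relatives one of 0.56 with 1 higher. Both these medians turned with the line: against line 1 alone they were 0.90 (3 higher) and 1.43 (3 higher), and against line 2 alone -0.27 (1 higher, 1 lower) and -0.12 (0 called). Rexo1, Tcstv1, Crnkl1 and Tmem92 relatives had medians between -0.15 and 0.09 against the mean of both WT lines, but these medians had opposite signs against each line alone. Against line 1 they were 0.79 for Rexo1 (3 of 4 higher), 0.64 for Tcstv1 (5 of 5 higher), 1.04 for Crnkl1 (3 of 4 higher) and 0.12 for Tmem92 (2 of 4 higher). Against line 2 they were -0.72 (3 lower), -0.69 (3 lower, 1 higher), -0.82 (4 lower) and -0.43 (2 lower, 1 higher). No test compared one family with another.

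These family counts moved with the libraries used. Without TRIM24_KO replicate 1 the lower counts were 8 of 12 for D5Ertd577e and C87414, 5 of 7 for Alyref, 3 of 5 for Pramef, 3 of 11 for Eif1a and 2 of 5 for Rbbp6, and the medians of Gapdh and Cdc5l relatives were 0.69 and 0.90. Without TRIM24_KO replicate 2, 3 of 15 Tdpoz relatives were higher, 5 of 5 Rbbp6 relatives were lower (median -1.15), and the medians of Gapdh and Cdc5l relatives were 0.03 and 0.10. The Cdc5l relatives called higher numbered 0 to 3 of 4 when each compared DOX library was left out. Against line 1 alone the Eif1a relatives had a median of 0.01 with 1 higher and 1 lower, 2 of 5 Pramef relatives (median -0.20), 1 of 5 Rbbp6 relatives (-0.33) and 4 of 7 Alyref relatives (-0.88) were lower, whereas 8 of 12 D5Ertd577e and C87414 relatives were lower and 11 of 15 Tdpoz relatives higher. Against line 2 alone, 12 of 12 D5Ertd577e and C87414 relatives and 11 of 11 Eif1a relatives were lower, and 4 of 15 Tdpoz relatives were higher and 1 lower. Scaled to the 2-cell-like list, 9 of 12 D5Ertd577e and C87414, 5 of 7 Alyref, 2 of 11 Eif1a and 0 of 5 Pramef relatives were lower, and 13 of 15 Tdpoz relatives were higher. TRIM24_KO replicate 2 is the library with 30.4% of its gene counts on CT010467.1. With CT010467.1 left out of the library sizes, 33 members were higher and 62 lower in TRIM24_KO (median -0.13), with 40.8% of all genes called.

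**Figure D5:**
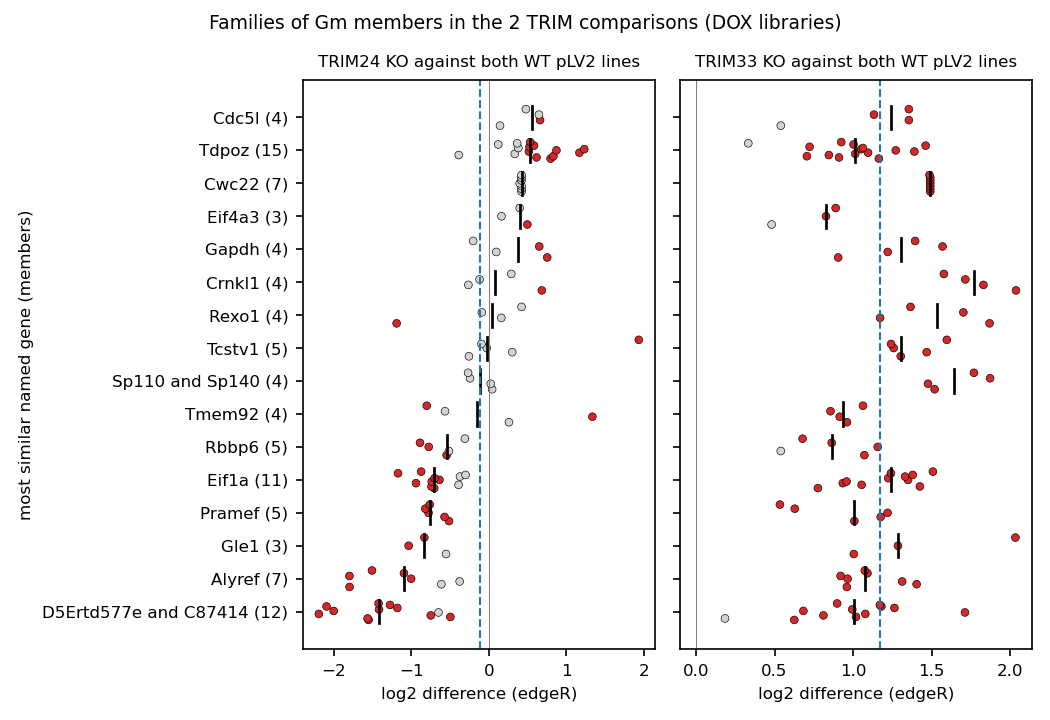
Log2 difference (edgeR) of each member in families of 3 or more, TRIM24 KO (left) and TRIM33 KO (right) against both WT pLV2 lines, red where the adjusted p was under 0.05, with the family median as a black bar and the median of all 223 members as a dashed blue line. On the left the families run from -1.42 for D5Ertd577e and C87414 to 0.56 for Cdc5l, of which 1 of 4 was called, and on the right every member lies above 0.

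Gm43225, a D5Ertd577e relative of 3 exons and an unprocessed pseudogene at chr5:93694994-93697721 (minus strand), had the smallest p among the lower members. It was at 4.23 and 7.38 CPM in TRIM24_KO, 16.7 and 18.0 CPM in line 1, 44.3 and 30.7 CPM in line 2, and 57.6 and 49.8 CPM in TRIM33_KO. TRIM24_KO was below every other pLV2 library with DOX, and the log2 difference was -2.19 (SE 0.21, edgeR adjusted p = 6.27e-07). Gm16429, a protein-coding relative of C87414 at chr5:93924777-93929052, was at 7.21 and 11.1 CPM in TRIM24_KO, 14.5 and 16.4 in line 1 and 48.7 and 41.1 in line 2 (log2 difference -1.56, SE 0.18, edgeR adjusted p = 5.7e-06). In TRIM33_KO this gene was at 33.7 and 25.8 CPM, between the WT lines, and was not called there (0.18, SE 0.15). Gm8332, the Eif1a relative, was at 54.1 and 69.6 CPM in TRIM24_KO, 69.96 and 87.3 in line 1 and 270 and 214 in line 2, so that only line 2 stood well above it. Its log2 difference was -1.17 (SE 0.15, edgeR adjusted p = 1.03e-05). With line 1 as the only reference it was -0.36 (adjusted p = 0.121).

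The higher member with the smallest p was Gm48931, a processed pseudogene of 1 exon at chr14:75841486-75841714 that matches Acy3, an aminoacylase, with 99.6% identity. It was at 50.6 and 57.0 CPM in TRIM24_KO, 16.1 and 20.9 in line 1, 22.5 and 20.6 in line 2, and 38.3 and 34.5 in TRIM33_KO. It was thus highest in TRIM24_KO, and the WT lines overlapped (log2 difference 1.43, SE 0.13, edgeR adjusted p = 2.23e-07). Gm4858, a protein-coding Tdpoz1 relative at chr3:93068823-93075505, was at 187 and 235 CPM in TRIM24_KO, 100 and 131 in line 1 and 121 and 120 in line 2 (log2 difference 0.83, SE 0.10, edgeR adjusted p = 5.78e-06). Gm49052, a processed pseudogene of Tcstv1 at chr14:83496398-83496901, was at 29.3 and 17.3 CPM in TRIM24_KO, 2.82 and 4.85 in line 1 and 10.5 and 9.33 in line 2. Its log2 difference was 1.94 (SE 0.22, edgeR adjusted p = 9.77e-06), while Gm21761, Gm20767 and Gm21818, the Tcstv1 relatives on chromosome 13 named above, had differences of -0.03, -0.26 and -0.09 from the mean of both lines and were not called. Against line 1 alone all 5 Tcstv1 relatives were called higher, as given above.

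The sign of the whole set turned with the reference. Against line 1 alone 90 members were higher and 21 lower (median 0.43), with 32.2% of all genes called, and against line 2 alone 12 were higher and 125 lower (median -0.69), with 46.8% of all genes called. Without TRIM24_KO replicate 1, 51 were higher and 32 lower (26.4% of all genes called), and without replicate 2, 13 were higher and 84 lower (32.4% of all genes called). Scaled to the 2-cell-like list, 74 were higher and 24 lower (median 0.26), where the median of all genes was 0.38 and 37.3% of them were called. That list summed to 2425 and 3632 CPM in TRIM24_KO with DOX, 2127 and 2593 in line 1 and 7107 and 5326 in line 2. The pluripotency genes summed to 4567 and 4409 CPM in TRIM24_KO, 5321 and 5372 in line 1 and 4266 and 4291 in line 2. The part of these lists in the result was not tested. Against each WT line alike, 10 members were higher and 20 lower, and 27 were called in opposite directions. The same counts over all genes were 11.9%, 8.1% and 2.04%. The 20 lower ones included 8 relatives of D5Ertd577e and C87414 and 4 of Alyref. The 10 higher ones included 3 Tdpoz relatives, the Tmem92 relative Gm11544, Gm49052 and Gm48931. Gm11544 was chosen after its values were seen. It was at 31.3 and 46.8 CPM in TRIM24_KO, 12.2 and 15.9 in line 1 and 15.2 and 18.0 in line 2.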

How the data were processed

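RNA was sequenced in 24 libraries with a directional kit after rRNA depletion, per the labels' protocols. The authors deposited a table of raw counts per gene and per repeat subfamily for each library, and 1146 repeat subfamilies were left out here. Per the submitters' processing notes, bcl2fastq 2.20.0, cutadapt 1.18, STAR 2.7.6a and mm10 were used. The counting tool, its annotation, its use of strand and its handling of reads that match several genes are not given in the sources used here. Gene names, biotypes and exons came from GENCODE M21, to which 222 of the 223 members matched with the version of their ID and 1 without.

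Counts were tested with edgeR 4.0.16 in R 4.3.3 (TMM factors, filterByExpr by group, quasi-likelihood fit, Benjamini-Hochberg adjustment over all genes tested, threshold 0.05), with 8 plain and 16 pLV2 libraries in a fit each. The SE is the log2 difference divided by the square root of F. CPM used TMM effective library sizes, computed in the plain and pLV2 sets apart. A floor of 3 counts per library was used for folds. Relatives were sought with blastn 2.17.0. Alternatives were RLE factors, DESeq2 1.42.0, other filters and library sizes, a replicate block, each WT line alone, each compared DOX library left out, and, added after seeing the data, scaling to the 2-cell-like list. The scripts were tested on simulated data.

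Members and lists were chosen with earlier results of these data known. Members are named if they had the 10 highest levels per kb, the 12 highest among protein-coding members, the 3 smallest p in each direction of a comparison, a count next to a limit of the rule, or a printed promoter. One member named by this rule is not reported here. Those named outside this rule are the 4 with printed transcript starts, those with identical counts, and Gm5773, Gm4778, Gm6763 and Gm11544.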

Additional observations from a re-analysis of the deposited data

How the results depend on the processing

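In TRIM24_KO against both WT lines the majority direction reversed with 3 settings: 111 members were called against line 1 alone (90 higher, 21 lower, median 0.43), 98 scaled to the 2-cell-like list (74 higher, 24 lower, median 0.26) and 83 without TRIM24_KO replicate 1 (51 higher, 32 lower, median 0.14; leaving out each compared DOX library gave medians from -0.40 to 0.14). With a log2 difference of at least 1, 31 were called there. In TRIM33_KO 69 were called against line 2 alone. Scaled to the 2-cell-like list, 72 were called in TRIM33_KO (8 higher, 64 lower, median -0.24) and 87 in line 2 against line 1 (12 higher, 75 lower, median -0.26). Of all genes, 87.2% and 83.2% were called on that scale, with medians of -1.42 and -1.41. In TRIM24_KO it was 37.3% of all genes, with a median of 0.38. This scaling moves all genes of a library by the same factor. In DUXBL_KO against WT 0 were called with edgeR, 2 with DESeq2, 93 when low counts were not filtered and, under the replicate block, 20 (all higher). The cause of these changes was not tested. Leaving out each DOX library of the compared groups in turn gave 0 to 0 calls for DUXBL_KO, 83 to 97 for TRIM24_KO, 172 to 207 for TRIM33_KO and 143 to 177 for the WT lines, against 0% of all genes, 26.4% to 37.4%, 14.4% to 25.7% and 27.1% to 32.6%. Same-numbered libraries deviated together with a correlation of 0.39 in the plain set and between -0.06 and 0.07 in the pLV2 set. The labels state no pairing. With the replicate block 97, 210 and 186 members were called in TRIM24_KO, TRIM33_KO and the WT lines, against 41.3%, 27.7% and 40.5% of all genes. A limit of 30 counts without DOX kept 202 members and a floor of 40 with DOX kept 140.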
